A study of Homo sapiens with 19 samples.

Results

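The 45 genes described here encode proteins that copy DNA or prepare it for copying, and they were found on the array by exact match of the gene name. All 45 were present, out of 31033 gene names. By role, 11 belong to origin licensing (the MCM2 to MCM7 helicase subunits, CDC6, CDT1, its inhibitor GMNN, and the origin recognition subunits ORC1L and ORC6L), 8 to origin firing (CDC7, MCM10, CDC45L, GINS1, GINS2, GINS3, CCNE1 and CCNE2), 17 to the replication fork, 5 to chromatin assembly or maintenance and checkpoint signalling (CHAF1A, CHAF1B, CLSPN, DTL and UHRF1) and 4 to nucleotide supply (DUT, RRM1, RRM2 and TYMS). The cells were THP-1, a human acute monocytic leukaemia line, which all groups share along with differentiation into macrophage-like cells by 30 nM PMA before the time course began. They were then left untreated (UT) or given 0.1 mM vit C, and RNA was taken after 8, 24, 48 or 96 h. Untreated cells were measured on 2, 3, 2 and 3 one-colour arrays at these times and vit C-treated cells on 3, 2, 2 and 2. Replicates were separate flasks of 1 cell line, so the groups model that line and not macrophages of different donors, and RNA of lower integrity had been left out by the authors.

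Each origin of replication is licensed once per cycle. The origin recognition complex, CDC6 and CDT1 load the MCM helicase, and geminin (GMNN) blocks CDT1 so that loading does not repeat. CDC7 and cyclin E kinase activity then turn the loaded helicase into an active one with CDC45 and GINS, after which polymerases, the PCNA clamp and its RFC loader build the new strands. The genes for many of these proteins are known targets of E2F transcription factors, which act around entry into S phase.

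Because members that change together invite a look at what their promoters share, the 300 bases from 250 before to 50 after each start site in RefSeq (GRCh38.p14) were searched on both strands for 4 forms of the E2F motif, TTTCCCGC, TTTGGCGC, TTTCGCGC and TTTGCCGC, with overlapping matches counted once. A promoter was found for 39 members, 3 of them under a newer symbol. Of these, 20 (51.3%) held a match, against 3.23% of all 27305 promoters, and 3 (7.69%) held 2 or more, against 0.132%. A CCAAT box was in 22 (56.4%) of the members' promoters and in 35.4% of all. These counts were not tested. A match shows only that these letters lie in the window. By role, a match was in 6 of 9 licensing, 3 of 7 firing, 7 of 14 fork, 3 of 5 chromatin and checkpoint and 1 of 4 nucleotide promoters. Stretches of 100 bases that end at the start site are shown for 3 genes that differed between vit C and UT cells at 24 h (GINS2, DTL and UHRF1), for the sliding clamp PCNA and for TYMS, which had the largest rise from 8 to 96 h. The bases run 5′ to 3′ on the strand of the gene, and capitals mark the motif.
GINS2: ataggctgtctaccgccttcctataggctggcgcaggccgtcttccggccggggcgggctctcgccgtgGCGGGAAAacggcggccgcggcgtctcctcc
DTL: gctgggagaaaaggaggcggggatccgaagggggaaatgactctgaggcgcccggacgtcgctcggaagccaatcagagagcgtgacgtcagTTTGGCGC
UHRF1: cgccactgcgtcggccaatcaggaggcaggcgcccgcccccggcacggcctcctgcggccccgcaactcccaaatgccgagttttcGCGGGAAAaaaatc
PCNA: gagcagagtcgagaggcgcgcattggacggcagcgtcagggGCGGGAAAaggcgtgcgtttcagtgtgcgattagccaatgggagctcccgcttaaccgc
TYMS: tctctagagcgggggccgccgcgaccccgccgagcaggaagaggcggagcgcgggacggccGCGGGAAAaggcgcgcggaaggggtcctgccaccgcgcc
The GINS2 stretch is chr16:85688955-85689054 on the minus strand, and its motif begins 31 bases before the start. The DTL stretch is chr1:212035648-212035747 on the plus strand, with the motif 8 bases before the start. The UHRF1 stretch is chr19:4909401-4909500 on the plus strand, with the motif 14 bases before the start. The PCNA stretch is chr20:5126623-5126722 on the minus strand (59 bases), and the TYMS stretch is chr18:657553-657652 on the plus strand (39 bases). The CDC7 window held no match to the 4 forms.

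Levels are given as the log2 of the processed signal minus the 75th percentile of the array, so that 0 is the 75th percentile itself, and each gene is read from its brightest probe. Levels of different genes come from different probes and are not set against each other. Of the 45 members, 42 were well above background on all 19 arrays, while GINS1 was on 16, CLSPN on 15 and CCNE2 on 13. To be called, a member had to differ by 1 log2 unit or more in either direction, with q (the p-value adjusted by Benjamini-Hochberg over all gene names) no higher than 0.05. The arrays lay on 4 slides. All UT arrays of 8, 24 and 48 h and 1 UT array of 96 h shared a slide, the other two UT arrays of 96 h shared a slide with all vit C arrays of 8 and 24 h and 1 of 48 h, and both vit C arrays of 96 h lay on a slide of their own, scanned on another day. UT 96 h replicate 3 stood apart, since its nearest array was a vit C array of 96 h (r = 0.973) and 7 members lay more than 1 log2 unit from the mean of the other 2 UT arrays. Of the 7 macrophage markers on the array, 6 were well above background on every array and LYZ was on 18. Of the T and B cell markers, CD3D was above background on 0 arrays and MS4A1 on 1, but CD3E and CD79A were on all 19.

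In UT cells no member was called higher or lower at 24 h than at 8 h, while 33 were called higher at 48 h and 42 at 96 h. None was called lower at any of these times. For the 45 the median log2 fold changes at 24, 48 and 96 h were 0.38, 1.52 and 2.12, against 0.06, 0.04 and 0.03 over all genes. With normexp background correction they were 0.31, 1.28 and 1.84, against 0.26, 0.3 and 0.05, so that at 24 h members and all genes lay close together. Counts of called genes are read against the share of all gene names called higher, which at 24, 48 and 96 h was 1.04%, 4.43% and 6.96%, or 1.27%, 5.48% and 8.61% of the 17292 genes well above background on all arrays. By limma, 15 members had an unadjusted p under 0.05 at 24 h, and all 15 were higher, where 15.3% of all gene names had such a p and 8.45% were higher. MCM4 and FEN1 had q values of 0.0327 and 0.0297 at log2 differences of 0.93 and 0.86. The 24 and 48 h arrays shared a slide with the 8 h arrays. On that slide alone, with its 1 array of 96 h, the members' median at 96 h was 1.9, against 0.02 over all genes. This comparison was added after seeing the data, and its 96 h group has no replicate. The methods' t-test, adjusted likewise, called 0, 0 and 4 members at 24, 48 and 96 h, and 0, 1 and 207 of all gene names.

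**Figure D1:**
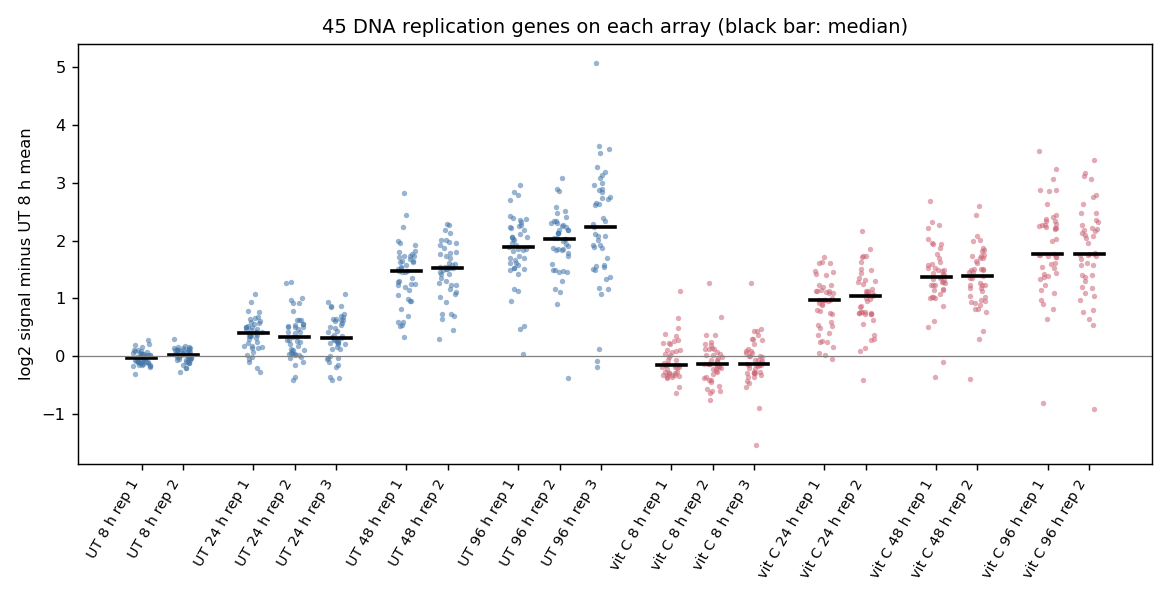
Each point is 1 of the 45 members on 1 array, as log2 signal minus the gene's mean in UT cells at 8 h, in blue for UT and red for vit C, with a black bar at the median. The medians were 0.32 to 0.41 on UT 24 h arrays and 0.97 and 1.04 on vit C 24 h arrays, and 1.48 and 1.53 against 1.37 and 1.38 at 48 h.

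Within each group the arrays lay close together in the members' median. That median, relative to UT cells at 8 h, was 0.41, 0.33 and 0.32 on the UT arrays of 24 h, 1.48 and 1.53 on those of 48 h and 1.90, 2.04 and 2.23 on those of 96 h. Every UT 48 h array lay above both UT 8 h arrays for all 45 members, where 34% of all gene names did. At 96 h this held for 43 members against 17.8% of gene names, and at 24 h for 30 against 17.7%. With 1 array left out the count was 27 to 30 at 48 h and 39 to 41 at 96 h. POLE2, PRIM1, RFC2 and RRM2 were not called at 48 h in any of these fits, and PCNA and RRM1 lost their call in at least 1. In bulk RNA, more cells in S phase and more RNA per cell cannot be told apart.

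All 11 licensing genes were called higher in UT cells at 96 h than at 8 h, and 8 were at 48 h. CDT1, which loads the helicase, lay at 1.66 and 1.87 on the 8 h arrays, at 2.18, 2.19 and 2.34 at 24 h, at 3.54 and 3.28 at 48 h and at 4.47, 4.66 and 4.41 at 96 h. Its log2 fold change from 8 h was 1.64 (SE 0.20) at 48 h and 2.75 (SE 0.18, q = 1.39e-07) at 96 h, and no array of 48 or 96 h overlapped those of 8 h. GMNN, the inhibitor of CDT1, lay at 0.27 and 0.20 at 8 h, 0.74, 0.29 and 0.45 at 24 h, 1.91 and 2.15 at 48 h and 2.56, 2.50 and 2.99 at 96 h. The loader and its inhibitor thus both rose, GMNN by 2.45 (SE 0.20) at 96 h.

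Among the helicase subunits, MCM4 lay at -0.79 and -0.98 at 8 h, at 0.06, 0.12 and -0.04 at 24 h, at 1.08 and 1.29 at 48 h and at 1.47, 1.35 and 2.01 at 96 h, a rise of 2.49 (SE 0.21) at 96 h. All 6 subunits were called at 96 h, between 1.25 (MCM5) and 2.49 (MCM4). MCM6 was not called at 48 h, with a log2 difference of 0.87 (q = 0.0416), nor was MCM5, with 1.16 (q = 0.13). The call of MCM5 at 96 h (q = 0.0425) was lost when either UT 8 h array, UT 96 h replicate 1 or UT 96 h replicate 2 was left out. Its 96 h levels were 3.99, 4.42 and 2.51, with replicate 3 close to the 8 h levels of 2.40 and 2.37. CDC6, which works with CDT1, lay at 0.00 and 0.25 at 8 h, 0.58, 0.54 and 0.47 at 24 h, 1.95 and 2.14 at 48 h and 2.02, 2.26 and 2.41 at 96 h. It had reached a log2 fold change of 1.92 (SE 0.19) by 48 h and stood at 2.11 at 96 h.

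ORC1L, the largest subunit, lay at -2.62 and -2.71 at 8 h and at -0.65, -0.54 and -1.12 at 96 h, a rise of 1.90 (SE 0.22). For ORC6L the brightest probe gave 0.39 at 48 h and 1.29 at 96 h, and its other probe 1.56 and 2.60, so the size of the change in ORC6L depends on the probe. The ORC6L call at 96 h was lost without UT 8 h replicate 1 or without UT 96 h replicate 3.

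All 8 firing genes were called higher at 96 h than at 8 h, and 7 at 48 h. GINS2, a subunit of the GINS complex of the active helicase, lay at 0.17 and 0.03 at 8 h, 0.52, 0.65 and 0.72 at 24 h, 1.83 and 1.88 at 48 h and 2.52, 2.58 and 2.81 at 96 h. Its log2 fold change was 1.76 (SE 0.18) at 48 h and 2.54 (SE 0.16, q = 1.11e-07) at 96 h, with no overlap of arrays. GINS1, another subunit, lay at -4.48 and -4.18 at 8 h and at -2.10, -2.00 and -1.15 at 96 h, a rise of 2.58 (SE 0.27). GINS3 stood at 1.17 at 48 h and 1.19 at 96 h, the smallest change of the firing genes at both times. Its second probe, well above background on all 19 arrays, gave 0.93 and 0.84, both under 1.

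CDC7, the kinase that activates the loaded helicase, was not called at 24 h. It lay at -0.62 and -0.75 at 8 h and at -0.88, -0.84 and -0.84 at 24 h, a log2 difference of -0.17 (q = 0.742). It then lay at 0.57 and 0.67 at 48 h and at 0.93, 0.62 and 1.23 at 96 h, which was called higher at both times (1.31 and 1.61, SE 0.22 and 0.20). MCM10, an initiation factor, lay at -1.74 and -1.52 at 8 h, at -1.16, -1.23 and -1.41 at 24 h, at -0.16 and 0.17 at 48 h and at 0.44, 0.25 and 0.98 at 96 h, so that its rise was 1.63 at 48 h and 2.19 at 96 h. CDC45L rose by the same 2.19 at 96 h (SE 0.17).

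Of the cyclins that partner CDK2, CCNE1 rose by 1.37 (SE 0.19) at 48 h and 1.71 (SE 0.17) at 96 h, and its 8 h levels were 2.38 and 2.43. CCNE2 was well above background on 1 of 2 arrays at 8 h and on 1 of 3 at 24 h. It lay at -4.78 and -5.33 at 8 h, at -2.23 and -3.04 at 48 h and at -3.56, -3.20 and 0.01 at 96 h. The call of CCNE2 at 96 h (2.81, SE 0.83, q = 0.0305) was lost without either UT 8 h array or without UT 96 h replicate 3, and at 48 h it was not called (2.42, q = 0.131).

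At the fork 14 of 17 members were called higher at 96 h and 10 at 48 h. RFC5, a subunit of the loader that puts PCNA on DNA, lay at 0.30 and 0.45 at 8 h, 0.52, 0.64 and 0.50 at 24 h, 1.84 and 1.96 at 48 h and 2.76, 2.63 and 3.46 at 96 h. The 4 RFC subunits among the members were all called at 96 h, between 1.68 (RFC2) and 2.57 (RFC5). PCNA itself lay at 1.60 and 1.63 at 8 h and at 3.32, 3.40 and 4.48 at 96 h, a rise of 2.12 (SE 0.31). DSCC1, a subunit of an alternative clamp loader with CHTF18, lay at -0.62 and -0.29 at 8 h, 0.05, -0.37 and -0.49 at 24 h, 1.19 and 1.51 at 48 h and 1.92, 2.05 and 2.68 at 96 h.

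The primase subunit PRIM1 was at -0.02 and 0.31 at 8 h, at 1.1 and 1.38 at 48 h and at 2.32, 2.32 and 3.14 at 96 h. PRIM1 rose by 1.1 at 48 h and 2.44 (SE 0.25) at 96 h, and POLA1, the catalytic subunit of polymerase alpha with which primase works, by 1.70 (SE 0.22) at 96 h. POLE2, an accessory subunit of polymerase epsilon, lay at -2.70 and -2.89 at 8 h, at -0.99 and -1.03 at 48 h and at -0.58, -0.76 and 0.83 at 96 h, a rise of 2.62 (SE 0.37). The 3 fork members not called at 96 h were all polymerase subunits: POLA2 (1.09, q = 0.103), POLD1 (0.83, q = 0.011, under the fold limit) and POLE (-0.14, q = 0.726).

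POLE, the catalytic subunit of polymerase epsilon, was the only member with a negative difference at 96 h. It lay at -3.14 and -2.93 at 8 h, -2.44 and -2.74 at 48 h and -3.0, -3.41 and -3.12 at 96 h. Of its 3 probes the brightest gave -0.14 at 96 h, the second 0.23 and the third 0.37, the last being well above background on 0 arrays. The POLA2 arrays at 96 h, 1.40, 1.81 and -0.31, had the lowest value on replicate 3, and the 8 h levels were -0.14 and -0.11.

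The flap nuclease FEN1 lay at -0.65 and -0.36 at 8 h, 0.16, 0.47 and 0.44 at 24 h, 1.23 and 1.36 at 48 h and 1.75, 1.67 and 1.37 at 96 h. LIG1, the ligase that joins Okazaki fragments, lay at 2.39 and 1.99 at 8 h, 2.80, 3.11 and 3.27 at 24 h, 4.19 and 3.81 at 48 h and 3.32, 4.02 and 3.36 at 96 h. Its log2 fold change from 8 h was 1.81 (SE 0.29) at 48 h and 1.38 (SE 0.26) at 96 h. RPA2 and RPA3, which coat single-stranded DNA, rose by 1.23 and 1.54 at 96 h and were not called at 48 h (0.99 and 0.63).

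The 5 chromatin and checkpoint genes were called higher at both 48 and 96 h. DTL, the substrate receptor that targets CDT1 for degradation, lay at -0.80 and -0.88 at 8 h, at -0.06, -0.21 and -0.34 at 24 h, at 1.39 and 1.45 at 48 h and at 1.95, 2.02 and 2.00 at 96 h. Its log2 fold change was 2.26 (SE 0.21, q = 1.26e-05) at 48 h and 2.83 (SE 0.20, q = 1.93e-07) at 96 h. CLSPN, an adaptor for checkpoint kinase activation, was at -4.49 and -4.90 at 8 h, on 1 of 2 arrays well above background, at -2.25 and -2.42 at 48 h and at -1.85, -2.12 and -2.80 at 96 h. CHAF1A and CHAF1B, which place histones on new DNA, rose by 2.05 and 2.40, and UHRF1, which brings DNA methylation to new strands, by 2.20 at 96 h. The second probe of UHRF1, well above background on 18 arrays, gave 1.43 at 96 h. At 48 h it gave 0.8, under 1, where the brightest gave 1.45.

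TYMS, which makes dTMP, had the largest rise of all members at 96 h. It lay at 2.37 and 2.58 at 8 h, 2.90, 2.98 and 2.70 at 24 h, 4.40 and 4.6 at 48 h and 5.43, 5.55 and 6.06 at 96 h, a log2 fold change of 2.03 (SE 0.28) at 48 h and 3.21 (SE 0.25), or 9.23-fold, at 96 h. The ribonucleotide reductase subunits RRM1 and RRM2 rose by 2.17 and 2.40 at 96 h, where RRM2 lay at 0.72, 0.53 and 2.31. The second probe of RRM2, above background on all 19 arrays, gave 0.93. RRM2 lay at -1.30 and -1.12 at 8 h and -0.14, 0.06 and -0.48 at 24 h, with no overlap but a q of 0.231 for its log2 difference of 1.02. At 48 h it lay at 0.50 and 0.77 and was called (1.84, SE 0.43). DUT, which keeps dUTP low, was not called at 48 h (0.65) and rose by 1.80 at 96 h.

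**Figure D2:**
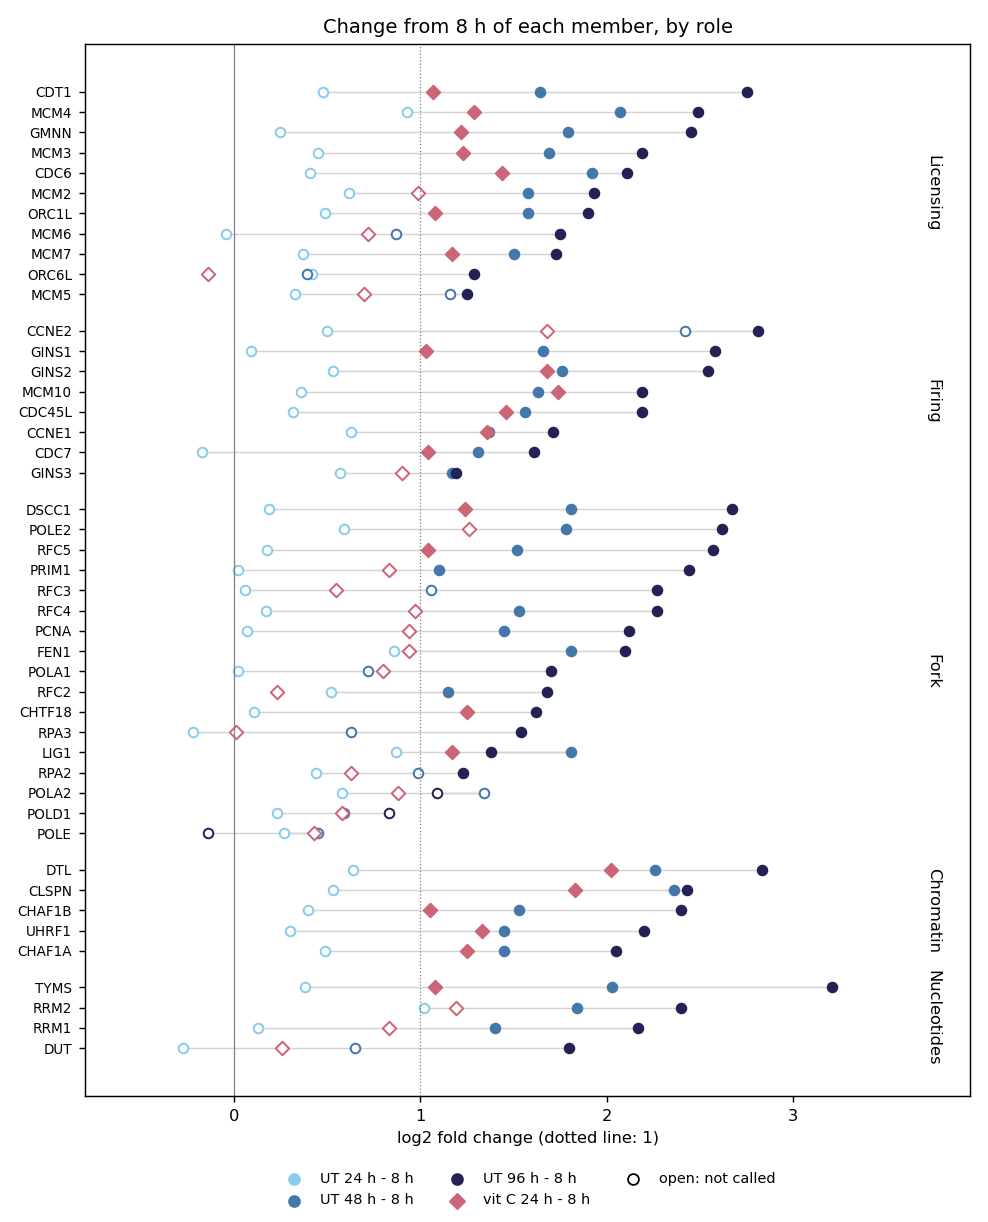
Log2 fold change from 8 h (horizontal axis) for each member, grouped by role: circles for UT cells at 24, 48 and 96 h from light to dark blue, red diamonds for vit C-treated cells at 24 h. Filled symbols were called, and the UT circles at 24 h are all open, while 23 of the 45 diamonds are filled.

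In vit C-treated cells 23 members were called higher at 24 h than at 8 h and 0 lower, where 2.35% of all gene names and 2.97% of the genes detected on all arrays were called higher. The median was 1.05, against -0.06 over all genes, and 41 members lay higher on every 24 h array than on any 8 h array, against 18% of gene names. These 5 arrays shared a slide. The methods' t-test, adjusted likewise, called 0 members and 0 of all gene names. All 23 were also among the 33 called in UT cells at 48 h and the 42 at 96 h, comparisons that share the UT 8 h arrays with each other. The called genes were 7 licensing, 6 firing, 4 fork, all 5 chromatin and checkpoint and 1 nucleotide gene. With 1 array left out the count was 18 to 21, and 12 of the 23 kept their call in every such fit.

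DTL had the largest rise. It lay at -1.11, -0.90 and -1.11 at 8 h and at 0.64 and 1.33 at 24 h, a log2 fold change of 2.02 (SE 0.20, q = 3.1e-05). MCM10 lay at -1.98, -2.00 and -2.52 at 8 h and at -0.65 and -0.19 at 24 h, a rise of 1.74 (SE 0.26). GINS2 lay at 0.21, -0.03 and 0.10 and then at 1.73 and 1.81, a rise of 1.68 (SE 0.16). No array of these 3 genes overlapped between the times.

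CLSPN rose by 1.83 (SE 0.30) from -5.33, -5.32 and -4.85 to -3.47 and -3.20, but was well above background on 1 of 3 arrays at 8 h. CDC45L, which joins MCM and GINS, lay at 1.49, 1.45 and 1.67 at 8 h and 2.99 and 3.02 at 24 h. CDC6 lay at -0.06, -0.04 and -0.07 at 8 h and 1.35 and 1.41 at 24 h. These rises were 1.46 and 1.44 (SE 0.17 for both).

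CCNE1 lay at 2.09, 2.28 and 2.39 at 8 h and 3.52 and 3.72 at 24 h, a rise of 1.36. MCM4 lay at -0.50, -0.51 and -0.52 and then at 0.72 and 0.84, a rise of 1.29. UHRF1 lay at 0.02, 0.07 and 0.04 and then at 1.07 and 1.67, a rise of 1.33 (SE 0.23) that was not called without vit C 24 h replicate 2.

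CHAF1A lay at 1.16, 1.08 and 1.44 and then at 2.52 and 2.44. CHTF18, of the alternative clamp loader, lay at 1.52, 1.66 and 1.80 and then at 2.85 and 2.98. DSCC1, its partner, lay at -0.22, -0.09 and -0.52 and then at 0.75 and 1.17. Each rose by 1.24 to 1.25. The DSCC1 call was lost without vit C 24 h replicate 2.

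CDC7 rose by 1.04 (SE 0.20) in vit C-treated cells, from -0.83, -0.55 and -0.97 to 0.06 and 0.45, and was not called without vit C 8 h replicate 3 or vit C 24 h replicate 2. The other calls lost when 1 array was left out were MCM7, CDT1, GINS1, ORC1L, RFC5, LIG1, CHAF1B and TYMS. Of CCNE2 the 3 arrays of 8 h were all not well above background, and its level at 24 h was at least 1.94-fold higher (q = 0.339). The members not called included RPA3 (0.01), RFC2 (0.23), DUT (0.26) and ORC6L (-0.14), but the second ORC6L probe gave 0.38. The fork as a group had a median of 0.88 against 1.41 for firing.

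Against UT cells of the same time, vit C-treated cells had 5 members called higher at 24 h, 1 at 96 h and none at 8 or 48 h. None was called lower. In the same order of 8, 24, 48 and 96 h the share of all gene names called higher was 0.145%, 0.661%, 1.57% and 1.66%, and of those detected on all arrays 0.15%, 0.758%, 1.8% and 1.58%. Across those times the 45 members had median differences of -0.15, 0.59, -0.09 and -0.20, beside all-gene medians of -0.05, -0.13, -0.01 and -0.15. With the slide as a fixed block the members' medians at 8 and 48 h were -0.26 and -0.23, beside all-gene medians of -0.03 and -0.01. At each time the UT and vit C arrays lay on different slides, and at 96 h the vit C arrays also had another scan day. The methods' t-test, adjusted likewise, called 0 members at any of the times, and 0 of all gene names. All 4 comparisons and those over time share arrays.

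**Figure D3:**
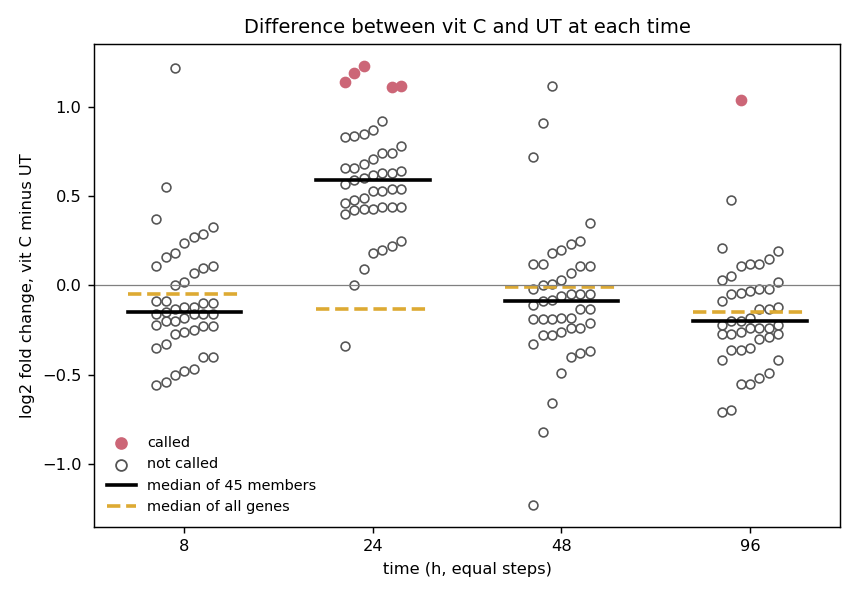
Log2 fold change of vit C over UT cells (vertical axis) for each of the 45 members at 8, 24, 48 and 96 h, with called members filled in red, a black bar at the members' median and a dashed bar at the median of all genes. At 24 h 44 of 45 members lie above 0, while at the other times the members' median lies at -0.20 to -0.09.

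At 24 h 44 of the 45 members had a positive difference and 25 an unadjusted p under 0.05 by limma, all 25 higher, where 15.9% of all gene names had such a p and 6.50% were higher. For GINS3 and ORC6L the second probe had the opposite sign (-0.53 against 0.44 and -0.29 against 0.66). In 34 members every vit C array lay above every UT array, against 12% of all gene names, and in 0 members every vit C array lay below, against 18.3%. The 5 called were CDC7, GINS2, DSCC1, DTL and UHRF1. For CDC7 the UT levels of -0.88, -0.84 and -0.84 stood against 0.06 and 0.45 with vit C, a log2 fold change of 1.11 (SE 0.20, q = 0.0158). GINS2 stood at 0.52, 0.65 and 0.72 in UT cells and 1.73 and 1.81 with vit C, a difference of 1.14 (SE 0.16, q = 0.00393). DTL stood at -0.06, -0.21 and -0.34 against 0.64 and 1.33 (1.19, SE 0.20, q = 0.00946). In each of the 3 genes the vit C arrays were both above all UT arrays.

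DSCC1 stood at 0.05, -0.37 and -0.49 in UT cells and at 0.75 and 1.17 with vit C (1.23, SE 0.26, q = 0.0307), and its second probe gave 1.24. UHRF1 stood at 0.59, 0.05 and 0.10 against 1.07 and 1.67 (1.12, SE 0.23, q = 0.0292), and its second probe gave 0.25. For MCM10 the levels were -1.16, -1.23 and -1.41 against -0.65 and -0.19, and it was not called (0.84, SE 0.26, q = 0.127). The second probe of MCM10 gave 1.01, beside 0.10 at 8 h and 0.91 for the difference between the effects at 24 and 8 h. CHTF18 (0.92), GMNN (0.87) and CDC6 (0.85) had q values of 0.0436, 0.0474 and 0.0256 but stayed under the fold limit. The firing genes had a median difference of 0.72 and chromatin and checkpoint genes of 0.83, against 0.43 for the fork, where RFC2 (0.00), RFC3 (0.09), POLA2 (0.20) and POLE (-0.34) were lowest. The second probe of RFC3, above background on all 19 arrays, gave 1.07, and under the methods' gene rule RFC3 and CHTF18 were called besides the 5.

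The 24 h calls changed with how the slide was modelled and when single arrays were left out. With the slide as a fixed block, the UT arrays of 96 h are what links the slides, with 1 on the UT slide. The other 2, replicate 3 among them, lay with the vit C arrays. No member was called in this fit. The members' median was 0.35, against -0.11 over all genes, and 37 of 45 members were positive. How many of all gene names were called in it was not counted. The differences were then 1.12 for CDC7, 1.13 for DTL, 0.97 for GINS2, 0.78 for DSCC1 and 0.74 for UHRF1, with q values from 0.36 to 0.756. With the slide as a random block the same 5 were called, and the estimated correlation within a slide was 0.04. With the replicate block DSCC1 (q = 0.0634) and UHRF1 (q = 0.0627) were not called, and with normexp background correction CDC7 was not (0.71, q = 0.0485) and CHTF18 was. Without vit C 24 h replicate 2 only GINS2 was called, and without replicate 1 of that group CDC7, GINS2, DTL and UHRF1 were. Without UT 24 h replicate 2 or UT 24 h replicate 3, CDC7, GINS2 and DTL were called. GINS2 was the only one of the 5 called in all 5 fits that left out 1 array.

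**Figure D4:**
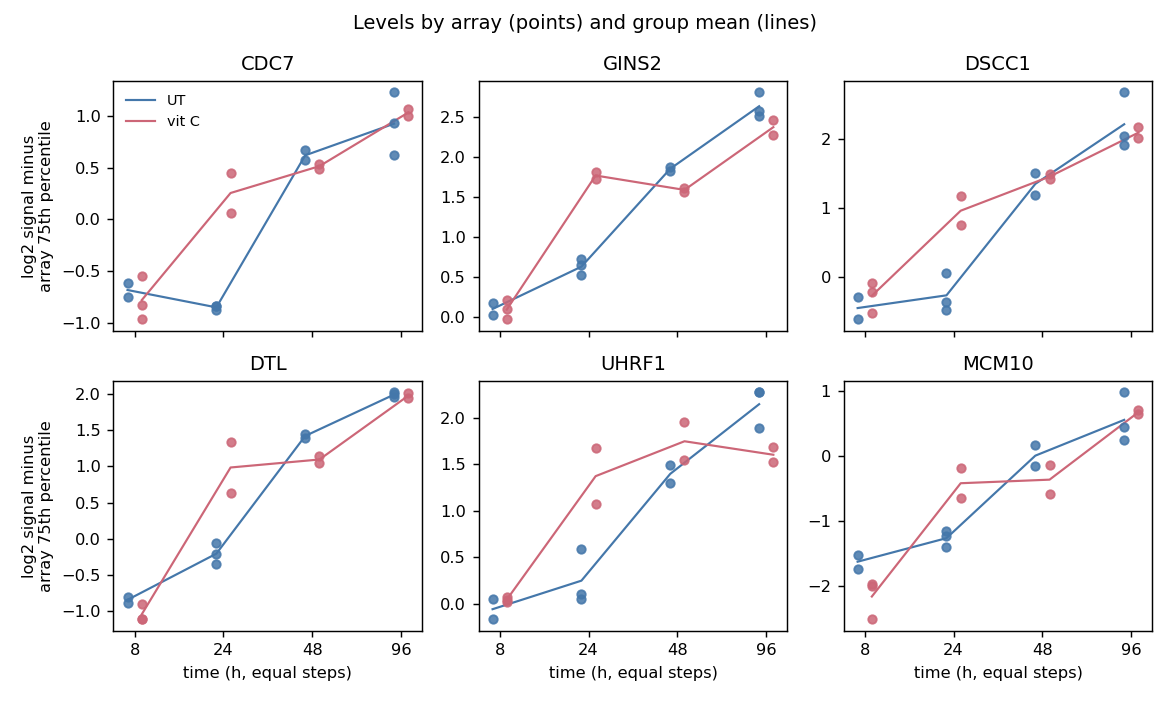
Level of the 5 members called between vit C and UT cells at 24 h, and of MCM10, on each array (points) with group means joined by lines, for UT in blue and vit C in red; the vertical axis is log2 signal minus the array's 75th percentile. At 24 h the vit C points of GINS2 (1.73 and 1.81) lie above the UT points (0.52 to 0.72), and at 8 and 48 h the 2 groups lie closer together.

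At 8 h no member was called by limma, and 3 had an unadjusted p under 0.05, 1 of them higher, where 12.1% of all gene names had such a p. In 6 members every vit C array was above every UT array and in 16 below, against 14.9% and 23.9% of all gene names. MCM10 lay at -1.74 and -1.52 in UT cells and -1.98, -2.00 and -2.52 with vit C (-0.54, SE 0.26, q = 0.43). CDC7 lay at -0.62 and -0.75 against -0.83, -0.55 and -0.97, and DTL at -0.80 and -0.88 against -1.11, -0.90 and -1.11. The largest difference was in the brightest ORC6L probe, 1.22 (q = 0.137), and its other probe gave 0.02. The same 2 probes gave 1.12 and -0.18 at 48 h.

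At 48 h no member was called by limma, and 3 had an unadjusted p under 0.05, 1 higher, where 15.4% of all gene names had such a p. Every vit C array was above every UT array in 6 members and below in 19, against 22.3% and 28.4% of gene names. GINS2 was at 1.83 and 1.88 in UT cells and 1.57 and 1.61 with vit C, both vit C arrays lying below those of UT cells. DTL was at 1.39 and 1.45 against 1.04 and 1.15, CDC7 at 0.57 and 0.67 against 0.54 and 0.49, and MCM10 at -0.16 and 0.17 against -0.14 and -0.59. POLE had the lowest adjusted p of the members (-0.82, q = 0.0944).

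At 96 h CLSPN alone was called, at -1.85, -2.12 and -2.80 in UT cells and -1.15 and -1.30 with vit C (1.04, SE 0.30, q = 0.0474). This call was lost without UT 96 h replicate 2 or 3 or without either vit C array of 96 h. For the members as a whole, 1 lay higher on every vit C array and 12 lower, against 10.7% and 26.2% of gene names, and 11 of 45 differences were positive. By limma 9 of the 45 had an unadjusted p under 0.05, 1 of them higher, where 24.9% of all gene names had such a p. Slide and scan day cannot be told apart from vit C at 96 h. The median of the members was -0.07 without UT 96 h replicate 3.

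Whether the vit C effect at 24 h differed from that at 8 h was tested directly, which also cancels any additive difference between the 2 slides involved. No member was called in this comparison, where 0.0193% of all gene names and 0.0231% of those detected on all arrays were (6 genes higher). By limma, 22 members had an unadjusted p under 0.05, all of them higher (9.11% of all gene names had such a p, and 3.32% were higher), 43 of 45 were positive and the median was 0.74, beside -0.04 for all genes. DTL differed by 1.38 (95% interval 0.79 to 1.98, q = 0.189), MCM10 by 1.38 (0.60 to 2.16, q = 0.346), CDC7 by 1.21 (0.59 to 1.82, q = 0.284) and GINS2 by 1.14 (0.65 to 1.64, q = 0.189). The firing genes had a median of 1.14 and the chromatin and checkpoint genes of 1.02, against 0.48 for the fork. Without vit C 24 h replicate 1, DTL was called.

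Other replication genes that are not members had medians of 0.02, 0.57 and 1.33 in UT cells at 24, 48 and 96 h and of 0.49 in vit C-treated cells at 24 h. Of 42 on the array, 0 were called at 24 h, 12 higher at 48 h and 25 higher at 96 h in UT cells, and 6 at 24 h in vit C-treated cells. At 96 h the largest were CCNA2 (cyclin A, 3.65, SE 0.25), GINS4 (2.89), ASF1B (2.80), the thymidine kinase TK1 (2.72) and TOP2A (2.69). At 24 h with vit C they were RECQL4 (1.45), C15orf42 (1.36), ASF1B (1.29), CDC25A (1.28) and WDHD1 (1.28). None of the 42 was called by limma between vit C and UT cells, where 7, 9, 4 and 4 had an unadjusted p under 0.05 at 8, 24, 48 and 96 h. These are 16.7%, 21.4%, 9.52% and 9.52% of the list, against 12.1%, 15.9%, 15.4% and 24.9% of all gene names. All 9 at 24 h were higher.

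The E2F and pocket protein genes, 14 in all, had 4 called higher at 48 h and 6 at 96 h in UT cells, and 3 higher with vit C at 24 h against 8 h. The list's medians in these comparisons were 0.45, 0.56 and 0.1, and 5, 5 and 4 of the 14 were negative. In UT cells E2F8, which represses S-phase genes, rose by 2.52 at 48 h and 3.63 at 96 h, and E2F2 by 2.31 and 3.35. E2F1 rose by 1.68 and 2.69, E2F7 by 1.69 at 48 h, and MYBL2 and RBL1 by 2.04 and 1.80 at 96 h, while E2F5 fell by 1.05 at 96 h. In vit C-treated cells from 8 to 24 h the risers were E2F2 (1.79), E2F7 (1.72) and E2F1 (1.48). Between vit C and UT cells at 24 h none was called by limma, with 5 of 14 (35.7%) at an unadjusted p under 0.05, 4 of them higher, and E2F1 stood at 0.83 (q = 0.0615).

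Genes used to judge scale and other cell types moved beside these results. The summed level of the 5 scale genes (PPIA, TBP, HPRT1, GAPDH and RPLP0) lay between 9.24 and 9.70 on the log2 scale over all groups. Of these 5, TBP was 0.65 higher in UT cells at 96 h than at 8 h (q = 0.0467). Between vit C and UT cells at 24 h, TBP was at 0.47 and RPLP0 at -0.37 (q = 0.3 and 0.292), and the list's median was 0.09. The summed level of the 7 macrophage markers lay between 8.12 and 8.74. Such a sum follows its strongest probe, here CSF1R, and single markers moved apart. From 8 to 96 h in UT cells, CD14 rose by 4.23, while CD68, LYZ and SPI1 fell by 1.51, 1.46 and 1.05. In UT cells at 48 h CD14 rose by 4.14 and LYZ fell by 2.93, and in vit C-treated cells from 8 to 24 h they rose by 3.14 and fell by 2.11. Between vit C and UT cells at 24 h none of the 7 was called, 6 were negative with a median of -0.64 over the list, and 4 had an unadjusted p under 0.05 by limma, of which CD14 (0.75) was higher and ITGAM (-0.64), MSR1 (-0.71) and LYZ (-0.82) were lower. That of 5 lymphocyte markers was 0.11 to 0.77 in UT cells at 8 h and 0.80 to 1.41 at 24 h, and 1.69 to 1.85 and 1.16 to 2.14 with vit C. It follows CD79A, whose difference between vit C and UT cells was 1.42 at 8 h and 0.58 at 24 h and was not called. For 5 fibroblast and epithelial markers it was 1.04 to 1.2 and 1.45 to 1.60 in UT cells and 0.98 to 1.01 and 1.93 to 2.04 with vit C, although COL1A2 and CDH1 were above background on 0 arrays. Of these, PDGFRA was called higher in UT cells at 48 h (2.53), and in vit C-treated cells at 24 h (1.72), each against 8 h. COL1A1, above background on 0 of 3 vit C arrays at 8 h and 1 of 2 at 24 h, was at least 1.08-fold higher (q = 0.031). The part of these markers in the members' differences was not tested.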

How the data were processed

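RNA of 19 samples was hybridised to Agilent one-colour arrays. The authors deposited spot intensity values from Agilent Feature Extraction (version 10.5.1.1 per the file headers), not yet normalised between arrays. They also deposited log2 values shifted to the 75th percentile, and these equal the log2 signal minus 1 constant per array within 0.01 for 100% of probes on every array. The log2 processed signal was used here, minus each array's 75th percentile (296.8 to 923.7 in signal units) over 51538 spots that are not controls. Replicate spots were averaged into 50238 probes for 31033 gene names, each read from the probe with the highest mean.

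With limma 3.58.1 in R 4.3.3, 8 group means were fitted to 19 arrays, 2-sided, with Benjamini-Hochberg adjustment over all gene names. Each array was 1 replicate, and the number of arrays limits the precision. The groups come from the labels. No 2 arrays held identical values (highest correlation 0.9901). Where a group had no array well above background, the fold is given as a minimum. The members and lists were chosen with earlier results of these data known. All members may be named. Array by array values are given for members called in a comparison, at most the 12 largest in each, and for CDC7, DTL and MCM10. Those of MCM5, ORC1L, PCNA, POLA2 and POLE, and of RRM2 at 24 and 96 h, were added after they were seen. Alternatives were normexp background correction, quantile normalisation, the percentile over detected probes, dim probes left out, the slide and the replicate number as blocks, the methods' t-test and gene rule, the series matrix and each array left out. The replicate numbers did not pair the samples (correlation of deviations -0.11 to 0.09). They were taken from the sample titles, while the descriptions number both 48 h groups 2 and 3. This pairs the same 48 h arrays but would join them to other numbers in the replicate block. The fit was tested on simulated data. One marker on these lists is not reported here, and 2 others were not found on the array by name. Figures were drawn in Python 3.11.15 with matplotlib 3.10.9. Promoter sequences came from RefSeq, GRCh38.p14. MCM4, MCM5, RPA2, RPA3, DSCC1 and CCNE2 were not matched to one.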

Additional observations from a re-analysis of the deposited data

How the results depend on the processing

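In UT cells at 48 and 96 h and in vit C-treated cells at 24 h, each against 8 h, the numbers of members called higher stayed within 1.5 times the reported 33, 42 and 23 under every alternative that uses limma. The methods' t-test, adjusted in the same way, called 0, 4 and 0 of them, and 0 of the 5 and of the 1 between vit C and UT cells at 24 and 96 h. Of all gene names it called 1, 207 and 0, and 0 between vit C and UT cells at either time. Without adjustment, at p up to 0.05 and the same fold limit, it gave 37, 39 and 24, and 5 and 0, where 8.10%, 9.87% and 5.50%, and 3.67% and 7.88% of all gene names passed. Between vit C and UT cells at 24 h, 0 were called with the slide as a fixed block and 3 with the replicate block. At 96 h the count went from 1 to 0 with normexp, with quantile normalisation, with the percentile over detected probes, with the slide as a random block and with the replicate block. The replicate block changed no other count by over 1.5 times, since its counts were 0, 33 and 40 in UT cells and 24 in vit C-treated cells. The cause was not tested. With each array left out in turn, the count was 0 in every fit at 24 h in UT cells, 27 to 30 at 48 h, 39 to 41 at 96 h, 18 to 21 in vit C-treated cells and, between vit C and UT cells, 0 at 8 and 48 h, 1 to 5 at 24 h, 0 to 1 at 96 h and 0 to 1 for the difference between effects. Where this left 1 array in a group, its spread was taken from the other groups. No called member changed sign under any alternative. The vit C 96 h value could not be fitted with the slide as a fixed block. Groups of 2 or 3 arrays limit what could be called.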
